A study of Homo sapiens with 13 samples.

Results

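The data set holds messenger RNA counts of AC16 cells, a human line derived from the fusion of primary ventricular cells of the adult heart with fibroblasts, in 13 libraries of 4 groups. The preconditioning+FCCP group had 3 libraries, the preconditioning group 4, the FCCP group 3 and the control group 3, each named by its treatment in the labels. FCCP carries protons across the inner mitochondrial membrane and so uncouples respiration, and preconditioning here means optogenetic treatment of mitochondria with a construct named mOpto. All 13 libraries carry the genotype wildtype in the labels, which leave unstated the FCCP dose and duration, and the construct and light status of the control and FCCP groups. The subject is a list of 10 genes named as targets of YAP or of TGF-beta: CCN1, CCN2, ANKRD1, F3, CRIM1, TGFBI, AMOTL2, LATS2, AXL and AJUBA. They were taken by name from the 63241 gene IDs of each count table. All 10 were among the 16756 genes with enough counts to be tested.

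YAP and its paralog WWTR1 (TAZ) are transcriptional coactivators that bind DNA through the TEAD factors. The Hippo kinase cascade, which ends in LATS1 and LATS2, phosphorylates them and keeps them out of the nucleus when cells are crowded, rounded or under low tension. TGF-beta ligands act through receptor kinases and SMAD factors, and the SMAD and TEAD arms share several target genes, among them the matricellular genes CCN1 and CCN2. In the heart, both arms are known for their part in fibroblast activation, matrix production and the response of muscle cells to stretch.

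Libraries held 14970803 to 20636229 gene counts. Levels are CPM, which express the reads of a gene relative to the scaled depth of its library, and changes are on the log2 scale with their standard error (SE), from edgeR's quasi-likelihood test, called at a Benjamini-Hochberg adjusted p under 0.05 over all 16756 genes. The labels do not say whether the libraries of a group were separate cultures, and the p-values therefore rest on a spread between libraries that may be technical. The libraries also part into a pair of sets at a gap in the percentage of multiply aligned reads, between 5.22% and 7.13%. Control 1 and 2, FCCP 1 to 3 and preconditioning+FCCP 3 form the higher-share set, while control 3, preconditioning 1 to 4 and preconditioning+FCCP 1 and 2 form the lower-share set. Within-set values therefore stand beside the comparisons. Where a set holds 1 library of a group, the spread comes from the other libraries of that fit, and the lone library is assumed to vary like them. Control 3, FCCP 1 and preconditioning+FCCP 3 also stood apart within their groups. Between libraries of a group, the chi-square per degree of freedom over genes was 140.0 and 155 for the pairs with control 3 against 20.4 for the other control pair, 73.6 and 94.4 for those with FCCP 1 against 20.8, and 82.2 and 114 for those with preconditioning+FCCP 3 against 26.5. The pairs with preconditioning 3 also stood higher, at 21.8, 18.6 and 29, against 3.13, 10.2 and 8.71 for the other preconditioning pairs. Control 3, FCCP 1 and preconditioning+FCCP 3 were also left out together, and preconditioning 3 was kept in that fit. Mitochondrial genes held 1.33%, 2.32% and 6.42% of gene counts in preconditioning+FCCP 1 to 3, 1.00% to 1.85% in preconditioning libraries, 6.49%, 1.94% and 1.55% in FCCP 1 to 3, and 9.58%, 8.95% and 3.00% in control 1 to 3. The labels call the cells myocytes, but 3 of 14 cardiomyocyte markers passed the count filter (TNNI3, ACTN2 and NPPB), and cardiac troponin T (TNNT2) was at 0 in all 13 libraries. All 10 fibroblast markers passed it.

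Promoter letters of 3 members are shown because these members fell in cells treated with FCCP alone, and because they differ in the short motif that TEAD factors are known to bind. RefSeq promoter windows (GRCh38.p14, a later build than the hg19 named in the submitters' processing notes) were matched by symbol for 8 members, some of them with 2 windows, 11 windows in all. CCN1 and CRIM1 were not matched. The letters CATTCC were searched on both strands in the 250 bases before each start, so that they appear as CATTCC or as GGAATG, and matches are in capitals. The windows lie at chr6:131951373-131951622 for CCN2, chr10:90921088-90921337 for ANKRD1 and chr1:94541760-94542009 for F3, each written 5′ to 3′ on the minus strand, which is the gene's own.
CCN2: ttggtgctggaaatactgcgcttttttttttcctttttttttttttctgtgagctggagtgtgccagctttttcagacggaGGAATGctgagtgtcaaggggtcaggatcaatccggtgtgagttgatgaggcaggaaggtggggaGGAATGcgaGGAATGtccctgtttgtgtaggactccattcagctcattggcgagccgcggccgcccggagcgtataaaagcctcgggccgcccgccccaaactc
ANKRD1: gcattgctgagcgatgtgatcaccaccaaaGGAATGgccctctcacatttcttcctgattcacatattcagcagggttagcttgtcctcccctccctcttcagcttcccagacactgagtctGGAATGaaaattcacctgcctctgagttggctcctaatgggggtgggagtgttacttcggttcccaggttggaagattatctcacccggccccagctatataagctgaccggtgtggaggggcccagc
F3: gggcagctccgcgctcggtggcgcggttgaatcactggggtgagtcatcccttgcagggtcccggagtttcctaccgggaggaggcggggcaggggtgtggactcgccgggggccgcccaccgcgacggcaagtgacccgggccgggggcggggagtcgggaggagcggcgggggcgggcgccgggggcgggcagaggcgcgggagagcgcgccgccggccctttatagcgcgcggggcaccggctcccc
The CCN2 window held 3 matches, which began 169, 104 and 95 bases before the start. The ANKRD1 window held 2, which began 220 and 128 bases before it, and the F3 window held 0. Of 35116 windows of the same length, 11.9% held at least 1 match, 0.94% at least 2 and 0.0826% at least 3. Among the other members, 1 match each stood in the second windows of AMOTL2, AJUBA and AXL, and none in those of TGFBI and LATS2. A SMAD-type motif, CAGACA, also searched on both strands, stood in 13.6% of all windows and in 1 window each of AMOTL2, ANKRD1, AJUBA and AXL. These matches describe letters only, and binding was not measured.

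The members covered a wide span of levels. Per kilobase of annotated exon (GENCODE 29), the mean level over all 13 libraries was 410.0 CPM per kb for CCN1, 127.7 for AXL, 89.7 for TGFBI, 67.4 for CCN2 and 52.1 for F3. It was 20.1 CPM per kb for CRIM1, 19.6 for AMOTL2, 15.7 for LATS2, 11.4 for AJUBA and 2.03 for ANKRD1. CRIM1 and AMOTL2 stood next to each other with nearly equal means, and both varied more than that between groups, while ANKRD1 was the lowest. ANKRD1 rested on 11 to 443 reads per library, so its counting error is the largest of the list.

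**Figure D1:**
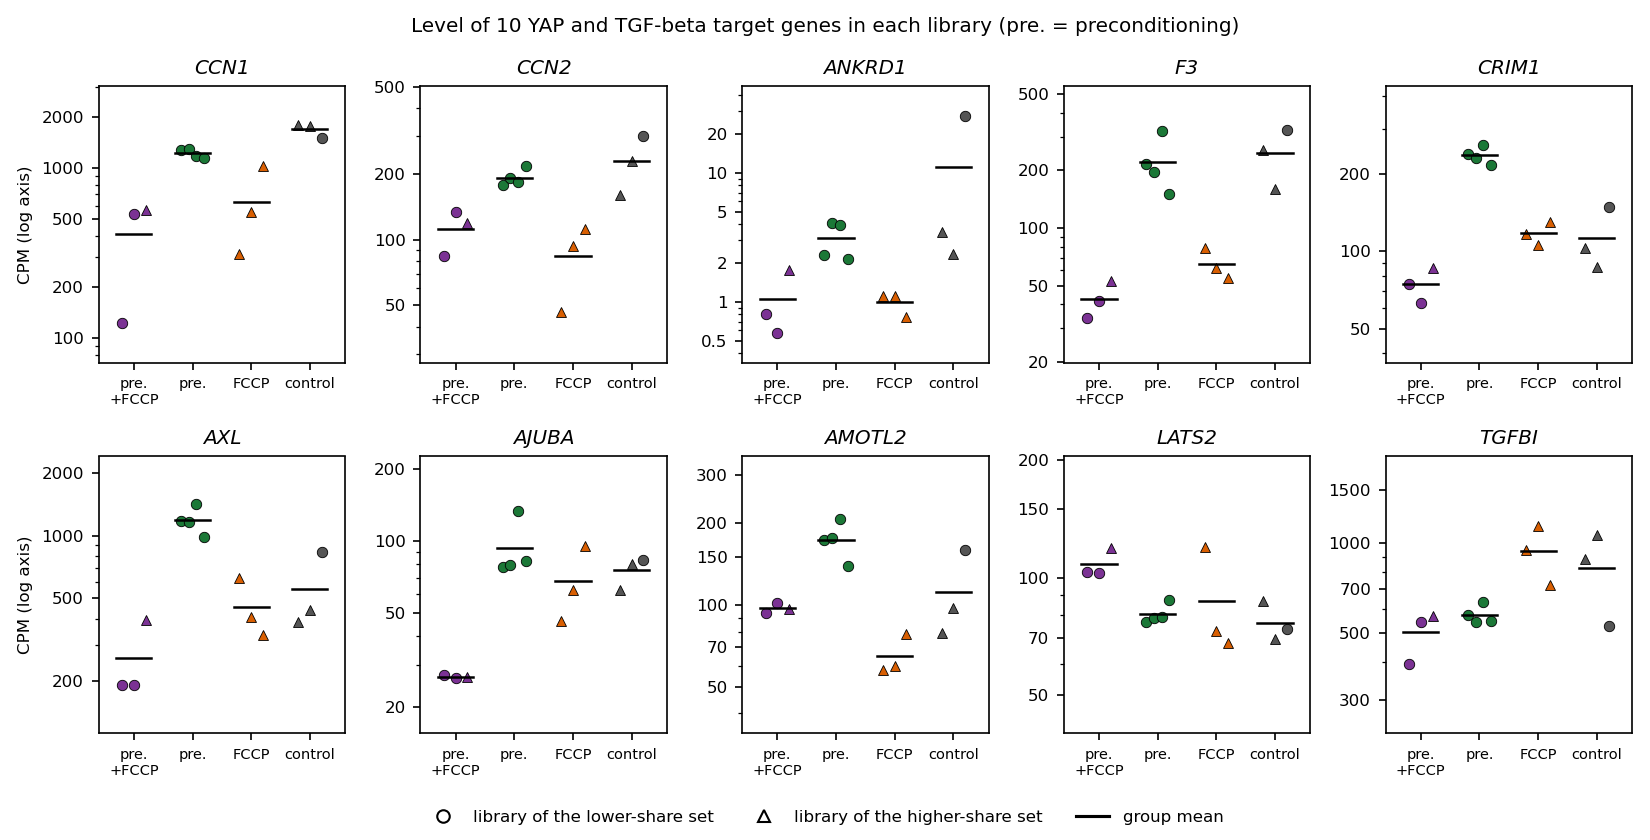
Level of each of the 10 genes in every library, in CPM on a log axis, by group. Points are single libraries, circles for the lower-share and triangles for the higher-share set, and lines are group means. CCN1, CCN2 and F3 lay lower in every FCCP library than in every control library, and AJUBA stood at 26.5 to 27.3 CPM in the 3 preconditioning+FCCP libraries, below every other library.

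FCCP was first compared with control in cells without preconditioning. Of the 10 genes, 3 fell and none rose: the matricellular gene CCN2, the cardiac ankyrin repeat gene ANKRD1 and the tissue factor gene F3. Over all genes tested, 1.60% were called higher and 1.92% lower. The median log2 change of the 10 genes was −0.53, against −0.04 over all genes. These are bulk libraries, in which fewer cells of a type and less RNA per cell cannot be told apart.

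CCN1 (CYR61) and CCN2 (CTGF) encode secreted matricellular proteins that bind integrins and are the most widely used readouts of YAP activity. CCN2 stood at 46.5, 93.1 and 112 CPM in FCCP 1 to 3, against 161, 230.3 and 298 CPM in control 1 to 3. Every FCCP library lay below every control library, and CCN2 fell (log2 change −1.45 ± 0.29, SE, edgeR adjusted p = 0.0185). CCN1 stood at 312, 551 and 1026 CPM in FCCP libraries, against 1787, 1779 and 1503 CPM in control libraries. The groups did not overlap for CCN1 either, but the FCCP libraries were spread widely and the gene did not pass (−1.42 ± 0.45, edgeR adjusted p = 0.0883). CCN1 was called in 3 of 23 alternative fits: with DESeq2 in place of edgeR, without the count filter and without preconditioning+FCCP 1. An antisense gene overlaps 8.34% of the exon bases of CCN2 in GENCODE 29, and these sources do not state whether reads were counted by strand.

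F3 encodes tissue factor, the receptor that starts blood coagulation. It stood at 78.7, 61.6 and 54.6 CPM in FCCP libraries, against 255, 160.2 and 324 CPM in control libraries. Every FCCP library was far below every control library, and F3 had the smallest adjusted p of the list (−1.93 ± 0.29, edgeR adjusted p = 0.00683). ANKRD1 encodes a nuclear and sarcomeric ankyrin repeat protein that is induced by stretch in heart muscle. Its level was 1.11, 1.12 and 0.759 CPM in FCCP libraries, against 3.50, 2.37 and 27.7 CPM in control libraries. The groups did not overlap, but control 3 stood far above control 1 and 2, and the fall (−3.48 ± 0.78, edgeR adjusted p = 0.0264) was −1.57 and no longer called without control 3, and the call also ended without FCCP 2 or FCCP 3.

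The other 6 members did not pass in this comparison. AMOTL2, which encodes an angiomotin family protein that binds YAP at junctions, lay at 57.6, 59.6 and 78.6 CPM in FCCP libraries, against 78.9, 97.4 and 159 CPM in control libraries. All FCCP libraries were lower, by a narrow margin to control 1 (−0.78 ± 0.23, edgeR adjusted p = 0.0745). AMOTL2 was called in 3 of 23 alternative fits: with DESeq2, without the count filter and without control 1. CRIM1, TGFBI, LATS2, AXL and AJUBA overlapped between the groups, with log2 changes of −0.28 to 0.19 and adjusted p-values from edgeR of 0.646 to 0.905. Of the 3 called members, 1 passed without FCCP 2 (F3) and none with the compared groups alone or within the higher-share set, where the changes were −1.18 for CCN2, −1.50 for ANKRD1 and −1.62 for F3. No FCCP library was in the lower-share set, so no value within it could be had.

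FCCP was next compared in preconditioned cells, that is preconditioning+FCCP with preconditioning. Here 7 of the 10 genes fell and none rose, against 20.2% of all genes called higher and 19.2% called lower. The median log2 change of the 10 genes was −1.59, against 0.02 over all genes. CCN1, CCN2 and F3 fell, together with CRIM1, AMOTL2, AXL and AJUBA. For 9 of the 10 genes the groups did not overlap, with TGFBI as the exception. Of these 9, LATS2 alone lay higher with FCCP, and LATS2 and ANKRD1 were not called. The share of all genes without overlap was not computed, so the 9 have no background to stand against. By edgeR's test, 8128 of all genes had an unadjusted p under 0.05 here. In the same comparison 9 of 10 fibroblast markers fell, and their part in these changes was not tested.

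Among the secreted and coagulation genes, F3 changed the most. It stood at 33.7, 41.5 and 52.9 CPM in preconditioning+FCCP 1 to 3, against 215, 197, 323 and 150.2 CPM in preconditioning 1 to 4. Every preconditioning+FCCP library lay far below every preconditioning library, and F3 fell (log2 change −2.37 ± 0.29, SE, edgeR adjusted p = 3.7e-05). CCN1 stood at 122, 535 and 567 CPM in preconditioning+FCCP libraries, against 1282, 1298, 1176 and 1145 CPM in preconditioning libraries. Preconditioning+FCCP 1 lay far below the other libraries of its group, while the preconditioning libraries lay close together (−1.59 ± 0.43, edgeR adjusted p = 0.00883). For CCN2 the levels were 83.8, 133 and 119 CPM in preconditioning+FCCP libraries and 178, 191, 183 and 218 CPM in preconditioning libraries. The change was the smallest of the 7 (−0.78 ± 0.27, edgeR adjusted p = 0.031), and the call ended without preconditioning 2, preconditioning 4, preconditioning+FCCP 1 or preconditioning+FCCP 3 (−0.83 to −0.61).

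The membrane and junction genes fell in this comparison as well. AXL encodes a receptor tyrosine kinase of the TAM family that binds GAS6. It stood at 192, 192 and 394 CPM in preconditioning+FCCP libraries, against 1179, 1167, 1414 and 984 CPM in preconditioning libraries. Every preconditioning library was far above the highest preconditioning+FCCP library, which was replicate 3 (−2.19 ± 0.34, edgeR adjusted p = 0.00019).

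CRIM1 encodes a transmembrane protein with cysteine-rich repeats that binds BMP ligands. Its level was 74.6, 62.7 and 86.2 CPM in preconditioning+FCCP libraries, against 239, 229.8, 258 and 217 CPM in preconditioning libraries. Both groups were tight and far apart (−1.66 ± 0.19, edgeR adjusted p = 2.64e-05). AJUBA encodes a LIM domain protein that binds LATS kinases and restrains them. It stood at 27.3, 26.5 and 26.7 CPM in preconditioning+FCCP libraries, against 77.8, 79.5, 133 and 82.4 CPM in preconditioning libraries. The 3 preconditioning+FCCP libraries were nearly equal, and preconditioning 3 stood above the other 3 of its group (−1.79 ± 0.25, edgeR adjusted p = 9.99e-05). AMOTL2 was at 93.8, 102 and 97.2 CPM in preconditioning+FCCP libraries, against 173, 177, 207 and 139.5 CPM in preconditioning libraries (−0.83 ± 0.22, edgeR adjusted p = 0.00739).

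ANKRD1 did not pass, at 0.811, 0.575 and 1.75 CPM in preconditioning+FCCP libraries and 2.30, 4.09, 3.96 and 2.13 CPM in preconditioning libraries (−1.59 ± 0.71, edgeR adjusted p = 0.0878). LATS2, a Hippo kinase that is itself a YAP target and so part of a negative feedback, was the one member whose log2 change was above 0 here. It stood at 103, 103 and 119 CPM in preconditioning+FCCP libraries, against 77.2, 78.8, 79.1 and 87.9 CPM in preconditioning libraries. All 3 preconditioning+FCCP libraries were above all 4 preconditioning libraries, without a call (0.42 ± 0.18, edgeR adjusted p = 0.0786). Within the lower-share set, which holds 2 preconditioning+FCCP and all 4 preconditioning libraries, the 7 called members had changes of −2.62 to −0.82. ANKRD1 was at −2.18 (called) there and LATS2 at 0.36 (called). No preconditioning library was in the higher-share set. With library totals as the only scaling, 6 members fell, without CCN2, and LATS2 rose (0.50). Of all genes, 3764 were then called higher and 2601 lower.

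The FCCP effect in preconditioned cells was then set against that in other cells through the interaction, the log2 change with preconditioning minus that without it. It was called for 3 members, all lower, against 9.38% of all genes called higher and 9.60% called lower. Its median was −0.27 over the 10 genes and 0.07 over all genes. The 3 were CRIM1, AXL and AJUBA, none of which was called for FCCP alone. For CRIM1 the log2 change on FCCP was −1.66 ± 0.19 with preconditioning and 0.06 ± 0.20 without it, a difference of −1.72 ± 0.27, edgeR adjusted p = 0.0012. For AXL the log2 change on FCCP was −2.19 ± 0.34 with preconditioning and −0.28 ± 0.33 without it, a difference of −1.91 ± 0.46, edgeR adjusted p = 0.0108. For AJUBA the changes were −1.79 ± 0.25 with preconditioning and −0.15 ± 0.25 without it (−1.65 ± 0.35, edgeR adjusted p = 0.00573 for the difference). These 3 calls held in all 21 alternatives fitted, among them each library left out in turn, with differences of −2.10 to −1.56 for CRIM1, −2.47 to −1.61 for AXL and −1.94 to −1.32 for AJUBA. No fit within a set was among them. The higher-share set holds no preconditioning library and the lower-share set no FCCP library, so the interaction could not be fitted within either.

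The interaction was not called for the other 7 members, and this does not show that their FCCP effects were alike. For F3 the log2 change on FCCP was −2.37 ± 0.29 with preconditioning and −1.93 ± 0.29 without it, a difference of −0.45 ± 0.39, edgeR adjusted p = 0.448. CCN1 differed by −0.16 ± 0.60 and CCN2 by 0.67 ± 0.39. The error was widest for ANKRD1 (1.89 ± 1.02, edgeR adjusted p = 0.203), whose control 3 library holds 443 reads, against 61 and 39 in control 1 and 2.

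**Figure D2:**
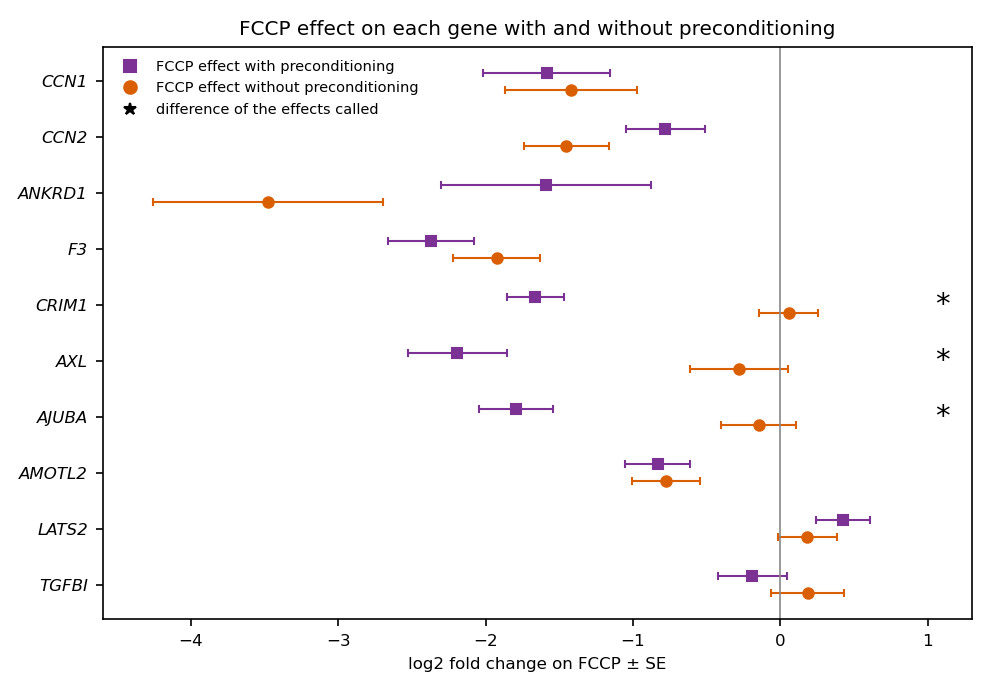
Log2 change on FCCP of each of the 10 genes in preconditioned cells (preconditioning+FCCP against preconditioning) and in other cells (FCCP against control), with standard errors, and a star where the difference was called. CRIM1, AXL and AJUBA lie near 0 in cells without preconditioning and between −2.19 and −1.66 in preconditioned cells, while F3, CCN1 and CCN2 lie below 0 in both.

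Preconditioning without FCCP was compared with control. Of the 10 genes 3 were called higher (CRIM1, AXL and AMOTL2) and 1 lower (ANKRD1), against 10.5% of all genes called higher and 13.0% called lower. The share of mitochondrial genes, 1.00% to 1.85% in preconditioning libraries and 3.00% to 9.58% in control libraries, moved with this comparison, and its part in the changes was not tested. The median log2 change was −0.04 over the 10 genes and −0.02 over all genes. CRIM1 stood at 239, 229.8, 258 and 217 CPM in preconditioning libraries, against 103, 87.0 and 149 CPM in control libraries. All 4 preconditioning libraries were above all 3 control libraries, and CRIM1 rose (log2 change 1.06 ± 0.19, SE, edgeR adjusted p = 0.00268), a call that held without any 1 library.

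AXL stood at 1179, 1167, 1414 and 984 CPM in preconditioning libraries, against 384, 441 and 839 CPM in control libraries. The groups did not overlap, although control 3 came close to preconditioning 4, and the rise (1.10 ± 0.32, edgeR adjusted p = 0.0233) was not called without control 1, control 2, preconditioning 1 or preconditioning 3 (0.89 to 1.10). AMOTL2 was at 173, 177, 207 and 139.5 CPM in preconditioning libraries, against 78.9, 97.4 and 159 CPM in control libraries. Control 3 lay above preconditioning 4, and the call (0.64 ± 0.22, edgeR adjusted p = 0.0447) ended in 8 of 13 fits that left out 1 library (0.44 to 0.64). ANKRD1 was at 2.30, 4.09, 3.96 and 2.13 CPM in preconditioning libraries, against 3.50, 2.37 and 27.7 CPM in control libraries. Control 1 and 2 lay within the range of the preconditioning libraries, so that the call (−1.84 ± 0.64, edgeR adjusted p = 0.0475) rested on control 3, without which the change was 0.07. With library totals as the only scaling ANKRD1 was not called. The count of members called was 1 without preconditioning 1 or preconditioning 3, and 2 without control 1, control 2, FCCP 2, preconditioning 2, preconditioning+FCCP 1 or preconditioning+FCCP 2. Over these fits 1563 to 4051 genes were called, against 3950 with all 13 libraries.

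The remaining 6 members did not pass. CCN1, CCN2 and F3, which fell after FCCP in preconditioned cells, had log2 changes of −0.46, −0.25 and −0.16 with preconditioning alone, with SEs of 0.26 to 0.41. TGFBI had −0.52 ± 0.23, edgeR adjusted p = 0.111. With the library set as a term, CRIM1 alone passed (0.97), and AXL was at 1.10 without a call. Within the lower-share set, where control 3 was the single control library, the changes were 0.66 for CRIM1 (called), 0.50 for AXL, 0.13 for AMOTL2 and −3.15 for ANKRD1 (called). CCN2 was called lower there as well (−0.63).

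Among cells given FCCP, preconditioning+FCCP was compared with FCCP. AJUBA, TGFBI and CRIM1 fell and no member rose, against 17.9% of all genes called higher and 17.7% called lower. The median log2 change of the 10 genes was −0.62, against 0.01 over all genes. AJUBA stood at 27.3, 26.5 and 26.7 CPM in preconditioning+FCCP libraries, against 45.9, 62.4 and 95.3 CPM in FCCP libraries. The FCCP libraries were spread widely, but all lay above the preconditioning+FCCP libraries (−1.34 ± 0.26, edgeR adjusted p = 0.00154).

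TGFBI encodes a secreted matrix protein first found as a TGF-beta-induced gene. It was at 395, 546 and 572 CPM in preconditioning+FCCP libraries, against 949, 1142 and 723 CPM in FCCP libraries. FCCP 3 was the lowest of its group and still above all preconditioning+FCCP libraries (−0.90 ± 0.25, edgeR adjusted p = 0.0122). The call ended without FCCP 2 (−0.73), without preconditioning+FCCP 1 (−0.75) and with the library set as a term (−0.51).

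CRIM1 was at 74.6, 62.7 and 86.2 CPM in preconditioning+FCCP libraries, against 117, 105 and 130.0 CPM in FCCP libraries. The groups did not overlap (−0.66 ± 0.20, edgeR adjusted p = 0.0185), and the call ended without FCCP 3 (−0.58) or preconditioning+FCCP 2 (−0.55). The 3 genes that fell on FCCP alone did not pass here. F3 had −0.60 ± 0.29, edgeR adjusted p = 0.111, CCN2 0.42 ± 0.28, edgeR adjusted p = 0.262 and ANKRD1 0.05 ± 0.80, edgeR adjusted p = 0.967. CCN1, which was called in neither comparison, had −0.63 ± 0.44, edgeR adjusted p = 0.28. AMOTL2 lay at 93.8, 102 and 97.2 CPM in preconditioning+FCCP libraries, all above the 57.6, 59.6 and 78.6 CPM of the FCCP libraries, without a call (0.58 ± 0.23, edgeR adjusted p = 0.061). Without control 3, AMOTL2 (0.56) and AXL (−0.84) were called as well, which made 5 members. That fit called 7059 genes, against 5976 with all 13 libraries. With library totals as the only scaling, AMOTL2 and LATS2 rose while TGFBI and AJUBA fell. Of all genes, 3981 were then called higher and 2229 lower. Within the higher-share set, where preconditioning+FCCP 3 was the single library of its group, no member passed and the changes were −1.35 for AJUBA, −0.73 for TGFBI and −0.46 for CRIM1.

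Both treatments together were compared with control. Of the 10 genes 8 fell and none rose, against 15.0% of all genes called higher and 16.2% called lower. The median log2 change was −1.07 over the 10 genes and −0.04 over all genes. F3 fell (log2 change −2.53 ± 0.30, SE, edgeR adjusted p = 0.00014), at 33.7, 41.5 and 52.9 CPM in preconditioning+FCCP libraries, against 255, 160.2 and 324 CPM in control libraries. AJUBA was at 27.3, 26.5 and 26.7 CPM in preconditioning+FCCP libraries, against 62.3, 80.1 and 83.2 CPM in control libraries (−1.49 ± 0.26, edgeR adjusted p = 0.00111). CCN1 was at 122, 535 and 567 CPM in preconditioning+FCCP libraries, against 1787, 1779 and 1503 CPM in control libraries (−2.05 ± 0.46, edgeR adjusted p = 0.00414). All 3 genes were lower in every preconditioning+FCCP library than in every control library.

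CCN2 (−1.03 ± 0.29, edgeR adjusted p = 0.0135), ANKRD1 (−3.43 ± 0.77, edgeR adjusted p = 0.00418) and CRIM1 (−0.60 ± 0.20, edgeR adjusted p = 0.0318) were also lower in every preconditioning+FCCP library. AXL and TGFBI were called with overlapping groups (−1.10 ± 0.34 and −0.71 ± 0.25, edgeR adjusted p = 0.0225 and 0.041). The call of TGFBI held in 10 of 24 alternatives, which gave −1.09 to −0.16, and among them in 5 of the 13 fits that left out 1 library. It ended with the library set as a term (−0.47), with a replicate block (−0.68) and within the lower-share set (−0.16). LATS2 stood at 103, 103 and 119 CPM in preconditioning+FCCP libraries, all above the 86.9, 69.6 and 73.6 CPM of the control libraries, without a call (0.50 ± 0.20, edgeR adjusted p = 0.0673). The count of members called was 5 with the compared groups alone and 4 without preconditioning+FCCP 1 and 5 without preconditioning+FCCP 2. All genes called in these fits numbered 3047, 3791 and 3224, against 5229 in the fit of all 13 libraries. F3, AJUBA, CCN1 and ANKRD1 were called in each of the 13 fits that left out 1 library. Without control 3 the change of ANKRD1 was −1.54, and CRIM1 (−0.39) and AXL (−0.71) were not called. With library totals as the only scaling 5 members fell and LATS2 rose (0.69), with 1873 of all genes called lower and 3487 higher. Within the lower-share set, with control 3 as the single control library, 8 members were called lower and LATS2 higher (0.49), and the 8 held AMOTL2 (−0.69) in place of TGFBI. Within the higher-share set, with preconditioning+FCCP 3 as the single library of its group, F3 alone passed (−1.94). AXL was at −2.12 within the lower-share set and −0.03 within the higher-share set, and ANKRD1 at −5.33 and −0.70.

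**Figure D3:**
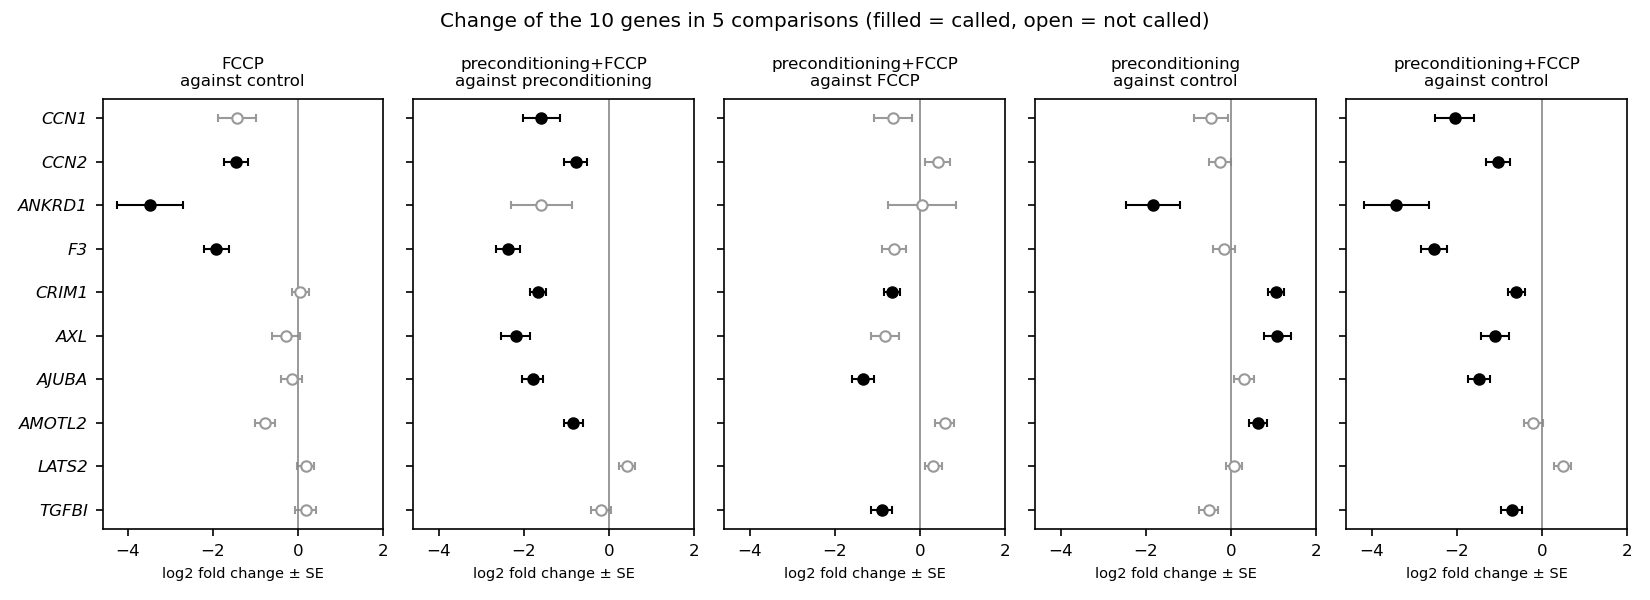
Log2 changes of the 10 genes with standard errors in the 5 comparisons between groups, with filled points for genes called at an edgeR adjusted p under 0.05. Called falls number 3 for FCCP against control, 7 for preconditioning+FCCP against preconditioning and 8 for preconditioning+FCCP against control, and the only called rises are CRIM1, AXL and AMOTL2 for preconditioning against control. Of all genes, 1.92%, 19.2% and 16.2% were called lower, in the same order. For preconditioning against control 10.5% of all genes were called higher.

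Fibroblast markers moved with the preconditioning+FCCP group. The summed level of 10 fibroblast markers was 1584 to 3175 CPM in preconditioning+FCCP libraries, 7129 to 7667 CPM in preconditioning libraries, 7546 to 9608 CPM in FCCP libraries and 5800 to 12820 CPM in control libraries. Of these 10, 9 fell in preconditioning+FCCP against each of the other groups, with median log2 changes of −1.76 against preconditioning, −2.08 against FCCP and −1.95 against control. Of all genes, 19.2%, 17.7% and 16.2% were called lower, in the same order. In FCCP against control, 0 of the 10 were called. In preconditioning against control 1 of the 10 was called lower, against 13.0% of all genes. The 5 smooth muscle markers summed to 68.3 to 103 CPM in preconditioning+FCCP libraries, 278 to 352 CPM in preconditioning libraries, 149 to 256 CPM in FCCP libraries and 169 to 235 CPM in control libraries. Of these 5, 2 were called lower in each of the 3 comparisons of preconditioning+FCCP, MYLK and CNN1. In preconditioning against control 1 of the 5 was called higher, against 10.5% of all genes. MYLK averaged 36.7 ± 13.5 CPM in preconditioning+FCCP libraries (SD, n = 3) and 237 ± 21.5 CPM in preconditioning libraries (SD, n = 4). The 14 cardiomyocyte markers summed to 1.22 to 4.24 CPM in preconditioning+FCCP libraries, 1.12 to 3.40 CPM in preconditioning libraries, 2.15 to 7.46 CPM in FCCP libraries and 2.37 to 6.08 CPM in control libraries. Endothelial and immune markers summed to at most 8.84 CPM in any library. The part of these shifts in the members' changes was not tested.

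The genes around YAP were described next, from a list of 22 Hippo pathway and TEAD genes, all of which were tested. Counts in this and the next 3 lists stand against the shares of all genes called, which were 1.60% higher and 1.92% lower for FCCP against control, and 10.5% and 13.0% for preconditioning against control. For preconditioning+FCCP they were 20.2% higher and 19.2% lower against preconditioning, 17.9% and 17.7% against FCCP, and 15.0% and 16.2% against control, and for the interaction 9.38% and 9.60%. In preconditioning against control 9 of the 22 rose and none fell, with a median log2 change of 0.52 against −0.02 over all genes. TEAD1, a DNA-binding partner of YAP, averaged 245 ± 19.9 CPM in preconditioning libraries (SD, n = 4) and 122 ± 18.8 CPM in control libraries (SD, n = 3), and rose (1.01 ± 0.18, edgeR adjusted p = 0.00263). The TEAD cofactor VGLL3 (0.84 ± 0.17) and FRMD6, an upstream Hippo protein (1.02 ± 0.22), rose as well. YAP1 and WWTR1 themselves, named here for their role and not by the size of their change, rose too (0.56 ± 0.14, edgeR adjusted p = 0.0129 for YAP1 and 0.61 ± 0.21, edgeR adjusted p = 0.0492 for WWTR1). No call in this or the next 3 lists was checked with the library set as a term or with a library left out. With that term, 459 of all genes were called for preconditioning against control, against 3950 without it. All preconditioning libraries are in the lower-share set.

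On FCCP in preconditioned cells, 10 of the 22 fell and 2 rose (median −0.40, against 0.02 over all genes). VGLL3 averaged 30.3 ± 6.55 CPM in preconditioning+FCCP libraries (SD, n = 3) and 191 ± 20.6 CPM in preconditioning libraries (SD, n = 4), and fell (−2.66 ± 0.18, edgeR adjusted p = 1.3e-06). The Hippo scaffold gene WWC1 (−2.30 ± 0.22) and FRMD6 (−2.16 ± 0.23) fell too, and so did YAP1 (−0.77 ± 0.14, edgeR adjusted p = 0.000891), while WWTR1 was not called (−0.19 ± 0.21, edgeR adjusted p = 0.508). The 2 that rose were the kinase genes LATS1 (1.01 ± 0.28) and STK3 (0.65 ± 0.18), named after their values were seen. VGLL3, WWC1 and FRMD6 were also among the 4 genes with a called interaction, all lower (−2.30 ± 0.25, −1.92 ± 0.31 and −1.85 ± 0.32).

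The other comparisons of these 22 genes went both ways or held no call. In FCCP against control none passed (median −0.24, against −0.04 over all genes), and the smallest adjusted p-values were those of the kinase gene MAP4K4 (−0.78 ± 0.22) and the LATS coactivator gene MOB1B (−0.90 ± 0.26). Against FCCP alone, preconditioning+FCCP had 9 rises and 4 falls, among them the Hippo kinase gene STK4 (1.00 ± 0.21) with a rise, and VGLL3 (−1.45 ± 0.18) and WWC1 (−1.42 ± 0.23) with falls. Against control, the combined treatment had 4 rises and 4 falls, with VGLL3 (−1.81 ± 0.18), WWC1 (−1.80 ± 0.23) and FRMD6 (−1.13 ± 0.24) among the falls.

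A further 16 YAP target genes outside the 10 were all tested. With FCCP added to preconditioning, 9 fell and 1 rose (median −0.73, against 0.02 over all genes). The membrane repair gene MYOF averaged 88.3 ± 25.0 CPM in preconditioning+FCCP libraries (SD, n = 3) and 281 ± 44.8 CPM in preconditioning libraries (SD, n = 4), and fell (−1.67 ± 0.26, edgeR adjusted p = 0.000198). The ligand gene TGFB2 (−1.91 ± 0.32) and the RNA-binding protein gene RBMS3 (−1.52 ± 0.30) fell as well. In FCCP against control 2 fell, the guanine exchange factor gene DOCK5 (−1.14 ± 0.28) and the adhesion gene AMIGO2 (−2.05 ± 0.55, edgeR adjusted p = 0.0494), and none rose (median −0.53, against −0.04). Control libraries were spread widely, from 9.92 to 63.4 CPM for AMIGO2 (SD 30.1, n = 3) and 35.3 to 87.6 CPM for DOCK5. FCCP libraries held 4.58 to 8.84 and 23.0 to 27.3 CPM. These 2 calls were not checked with a library left out.

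In preconditioning against control 1 of these 16 rose, the ARF regulator gene ASAP1 (0.88 ± 0.22), and 2 fell, the stress gene GADD45A (−1.25 ± 0.39) and the IGF-binding protein gene IGFBP3 (−0.76 ± 0.26), which is no more than the shares of all genes called in that comparison (10.5% and 13.0%). Among FCCP-treated cells, preconditioning came with 2 rises, ASAP1 among them (0.79 ± 0.23), and 2 falls, RBMS3 (−1.69 ± 0.32) and TGFB2 (−1.34 ± 0.33), again no more than the shares of all genes (17.9% and 17.7%). The combined treatment against control had 5 falls and no rise, with RBMS3 (−1.54 ± 0.32), TGFB2 (−1.35 ± 0.33) and FJX1 (−1.72 ± 0.43) of smallest adjusted p. The interaction was called lower for 3, among them TGFB2 (−1.90 ± 0.44) and RBMS3 (−1.67 ± 0.43), and higher for 2, among them the forkhead factor gene FOXF2 (1.42 ± 0.38).

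On the TGF-beta side, 21 genes of ligands, receptors, latency proteins, SMADs and their regulators were tested, and TGFB2 stands in this list too. On FCCP in preconditioned cells 9 fell and 5 rose (median −0.22, against 0.02 over all genes). SMAD3, a SMAD that binds DNA downstream of TGF-beta receptors, averaged 50.2 ± 1.02 CPM in preconditioning+FCCP libraries (SD, n = 3) and 228 ± 24.6 CPM in preconditioning libraries (SD, n = 4), and fell (−2.19 ± 0.18, edgeR adjusted p = 2.58e-06). The coreceptor gene TGFBR3 fell too (−2.03 ± 0.29). In preconditioning against control 4 rose and none fell, with TGFBR3 (1.68 ± 0.29), SMAD3 (0.77 ± 0.17) and the receptor gene TGFBR2 (1.24 ± 0.29) of smallest adjusted p. In FCCP against control 1 fell, the ubiquitin ligase gene SMURF2, a negative regulator of the pathway (−1.39 ± 0.27, edgeR adjusted p = 0.0185). SMURF2 ran from 71.6 to 174.9 CPM in control libraries and from 37.45 to 45.5 CPM in FCCP libraries. Its call was not checked with a library left out.

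Of these 21, 6 fell and 3 rose in preconditioning+FCCP against FCCP, with SMAD3 (−1.10 ± 0.18), the latency protein gene LTBP3 (−1.01 ± 0.19) and TGFB2 among the falls. Against control, 7 fell and 4 rose in the combined treatment, with SMAD3 (−1.42 ± 0.18), LTBP3 (−1.09 ± 0.19) and SMURF2 (−1.22 ± 0.27) among the falls. The interaction was called lower for 5 and higher for none, with SMAD3 (−1.87 ± 0.25) and TGFBR3 (−2.72 ± 0.42) among them.

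Of 14 other TGF-beta target genes, 10 fell and 1 rose in preconditioning+FCCP against preconditioning (median −1.02, against 0.02 over all genes). The collagen gene COL1A1, which is also in the fibroblast marker list, averaged 608 ± 92.8 CPM in preconditioning+FCCP libraries (SD, n = 3) and 3663 ± 265 CPM in preconditioning libraries (SD, n = 4), and fell (−2.59 ± 0.27, edgeR adjusted p = 1.15e-05). The matrix genes LTBP2 (−1.27 ± 0.19) and THBS1 (−2.00 ± 0.33) fell as well. In FCCP against control none of the 14 passed (median −0.32, against −0.04), with THBS1 at −0.97 ± 0.33 and the transglutaminase gene TGM2 at −1.36 ± 0.49.

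In preconditioning against control 1 of these 14 rose, LTBP2 (0.57 ± 0.18), no more than the 10.5% of all genes. In preconditioning+FCCP against FCCP 2 fell, COL1A1 (−2.72 ± 0.28) and the matricellular gene POSTN (−0.99 ± 0.30), against 17.7% of all genes, and in preconditioning+FCCP against control 5 fell, among them COL1A1 (−2.72 ± 0.28) and THBS1 (−1.71 ± 0.34). The interaction was called lower for 3, which were COL1A1 (−2.59 ± 0.36), LTBP2 (−0.97 ± 0.27) and POSTN (−1.36 ± 0.41).

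**Figure D4:**
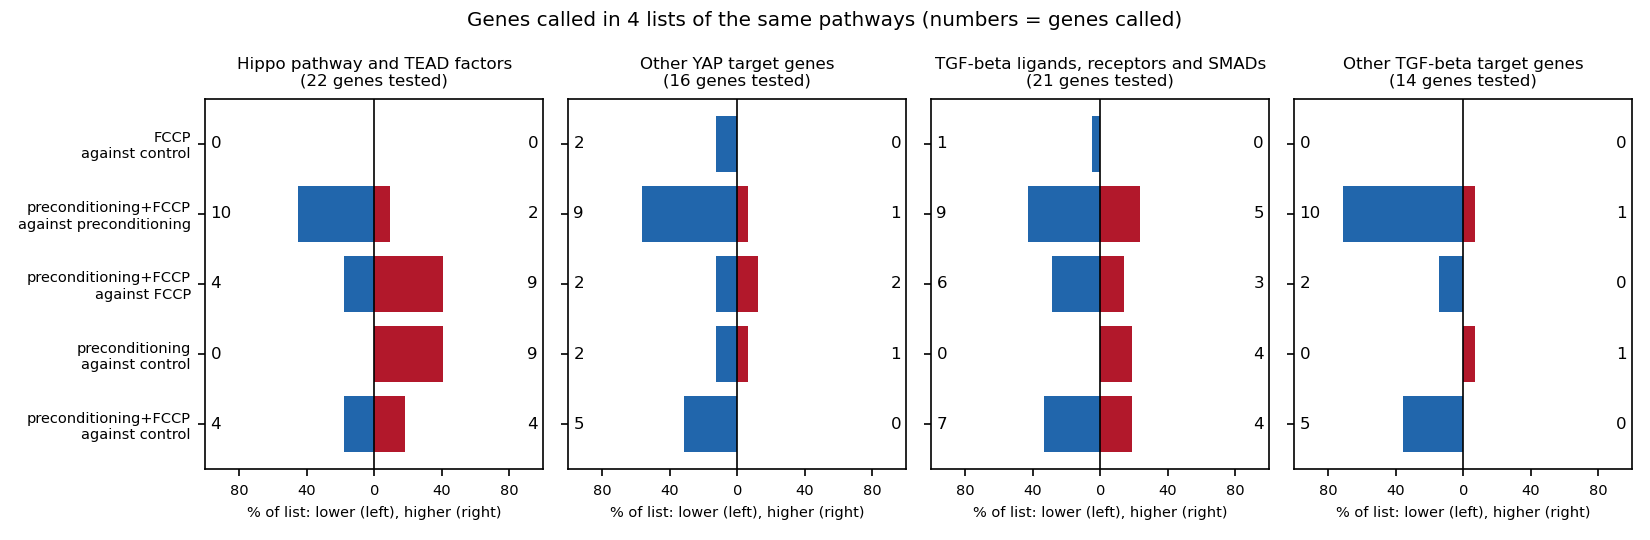
Share of each of the 4 lists, in percent, called lower (left of 0) and called higher (right of 0) in the 5 comparisons between groups, with the number of genes at each side. In preconditioning+FCCP against preconditioning the genes called lower were 10 of 22 Hippo and TEAD genes, 9 of 16 other YAP targets, 9 of 21 TGF-beta ligands, receptors and SMADs and 10 of 14 other TGF-beta targets. The genes called higher were 2, 1, 5 and 1, in the same order. Of all genes, 19.2% were called lower there and 20.2% higher.

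The 10 genes did not vary as a single block. Across the 13 libraries, 31 of the 45 pairs of members had a positive Pearson correlation of log2 CPM, with a median of 0.503. The range ran from −0.797 for LATS2 and AJUBA to 0.938 for CRIM1 and AXL. After group means were taken out, 29 pairs were positive and the median was 0.144. These are descriptions over 13 libraries that share group, set and depth.

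By the same measure over all tested genes, the gene most like CRIM1 was the actin regulator FLII (r = 0.978), and FLII was also the one most like AXL (r = 0.977). AJUBA was most like SYDE1 (r = 0.988) and F3 most like WNK4 (r = 0.969). ANKRD1 was most like PTX3 (r = 0.958), CCN1 most like PLK2 (r = 0.929) and CCN2 most like SPRY4-AS1 (r = 0.925). AMOTL2 was most like GIT2 (r = 0.967), and LATS2 most like PELI1 (r = 0.950). TGFBI was most like FAM162A (r = 0.946). Each r is the highest over all other tested genes, so it is high by selection. ANKRD1 stood at 27.7 CPM in control 3 and at most 4.09 CPM in the other libraries. Its r was not recomputed without control 3.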

How the data were processed

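Per the labels, poly-T beads captured the mRNA, and cDNA was primed with random hexamers. Per the submitters' processing notes, HISAT2, HTSeq and the build hg19 were used, without versions; the annotation and strand setting are not given in the sources used here. The authors deposited raw read counts per gene, as whole numbers. Rows naming no gene were left out: 2.13% to 5.20% of reads in a library lay outside genes, 11.0% to 12.4% overlapped more than 1 gene, and 3.16% to 11.5% aligned to more than 1 place.

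Genes were kept with edgeR's default filter, scaled by TMM and tested by edgeR's quasi-likelihood method (edgeR 4.0.16 in R 4.3.3). One model held all 13 libraries, with a coefficient per group, and p-values were adjusted by Benjamini-Hochberg over 16756 genes. SE is the size of the log2 change over the root of F. CPM uses TMM-scaled library sizes. The fit was tested on counts simulated from its own estimate of the spread. That simulation held no library sets and no libraries that stood apart, so it does not bear on their effect. No library pair within a group agreed as closely as sampling noise allows. Depth gives precision for counting error only.

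The members and lists were chosen with earlier results of these data known, so their directions are not independent evidence. Named list genes are, per list and comparison, the called genes of smallest adjusted p, up to 3, or the 2 smallest where none was called; YAP1, WWTR1, LATS1 and STK3 were named beside the rule. Alternatives were library totals alone, size factors of DESeq2, no filter, DESeq2 1.42.0, limma-voom (limma 3.58.1), compared groups alone, a replicate block, a term for the library set, fits within each set, 3 libraries left out together and each library left out. Likeness is Pearson's r of log2 CPM over 13 libraries.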

Additional observations from a re-analysis of the deposited data

Results flagged for a closer look

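In the preconditioning group, AJUBA stood at 133 CPM in replicate 3, away from 77.8 to 82.4 CPM in the other 3 libraries. The gap was 0.916 of the group's whole range. Each of the 10 genes was looked at in these same 4 libraries, and chance marks about 1 in 20 such checks. The checks share their libraries and are not independent of each other. The FCCP effect differed between preconditioned and other cells for 3 members by the interaction term of edgeR's quasi-likelihood test. The difference was −1.72 ± 0.27, edgeR adjusted p = 0.0012, for CRIM1, −1.91 ± 0.46, edgeR adjusted p = 0.0108, for AXL, and −1.65 ± 0.35, edgeR adjusted p = 0.00573, for AJUBA.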

How the results depend on the processing

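Of 1370 changes of single members refitted, 1232 kept their call or lack of one, 91 lost a call with the sign kept and 45 gained one. In 36 the sign changed, and 2 of these had been called with all libraries and lost that call. The change of ANKRD1 for preconditioning against control was 0.074 without control 3 and 0.072 without control 3, FCCP 1 and preconditioning+FCCP 3 together, against −1.84 with all libraries, and −2.32 to 0.07 over the fits that left out 1 library. The causes of the shifts listed here were not tested.

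For FCCP against control, 5 members and 1078 genes were called without a filter and 5 and 1326 by DESeq2, against 3 and 590 by edgeR's quasi-likelihood test. Limma-voom called 382 genes. With the compared groups alone 0 members and 17 genes were called (2079 at an unadjusted p under 0.05), and within the higher-share set 0 and 21. With the library set as a term 938 genes were called, and without control 3, FCCP 1 and preconditioning+FCCP 3, which stood apart within their groups, 3119. For preconditioning against control (4 members, 3950 genes), the set term left 1 member and 459 genes, and leaving those 3 libraries out gave 8327 genes. For preconditioning+FCCP against FCCP (3 members, 5976 genes), 5 members were called without a filter, 3629 genes with the set term, 7 members and 9158 genes without the 3 libraries, and 0 members and 0 genes within the higher-share set, with 4242 genes at an unadjusted p under 0.05. For preconditioning+FCCP against control (8 members, 5229 genes), 5 members and 3047 genes were called with the compared groups alone, 1 and 229 within the higher-share set, and 8664 genes without the 3 libraries. The interaction was called for 6420 genes without the 3 libraries, against 3180.

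Same-numbered libraries of different groups deviated from their group means with correlations of −0.18 to 0.15 over 18 pairs, so the numbers were not taken to pair them. With a replicate block 53 genes were called for FCCP against control, 1840 for preconditioning against control and 1897 for the interaction.

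With each library left out in turn, 1 to 4 members and 141 to 884 genes were called for FCCP against control, and 1 to 4 and 1563 to 6022 for preconditioning against control. For preconditioning+FCCP the ranges were 2 to 5 members and 3959 to 7059 genes against FCCP, 6 to 8 and 5052 to 7588 against preconditioning (7 and 6594 with all libraries) and 4 to 9 and 3224 to 6570 against control. The interaction kept 3 members, with 2046 to 4566 genes.

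Library totals as the only scaling moved the median log2 change of all genes by 0.11 for preconditioning against control, and, for preconditioning+FCCP, by 0.18 against FCCP and by 0.20 against control. The share of calls that were higher then was 58.0% for FCCP against control (45.4% with TMM), 55.2% for preconditioning against control (44.7%) and, for preconditioning+FCCP, 64.1% against FCCP (50.3%) and 65.1% against control (48.0%). ANKRD1, at 11 to 443 reads per library, is the member whose values depth limits most.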
